A study of Mus musculus with 41 samples.

Results

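De novo SOX9 sites that gain MLL3/4 were studied as a set of 2489 regions, taken from 28549 merged SOX9 regions (8.72%). A region was kept when SOX9 CUT&RUN (CNR) peaks overlapped it at W1, W2 and W6 of induction, when no SOX9 or MLL3/4 peak overlapped it at D0, and when an MLL3/4 peak overlapped it at W1 or W2. The regions were therefore selected on measured SOX9 and MLL3/4 peaks, and their values in those 7 lists are given as a description. Of 10237 regions with SOX9 at W1, W2 and W6, 9560 had no SOX9 peak at D0. The W12 peaks took part only in drawing the bounds of the merged regions. These 9560 split into the 2489 sites that gained MLL3/4, 521 de novo sites with no MLL3/4 peak at D0, W1 or W2, and 6550 sites with a prior MLL3/4 peak at D0. The latter 2 sets served as comparisons.

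SOX9 is a transcription factor of the hair follicle stem cell (HFSC) whose HMG domain bends DNA at a short AT-rich motif, and it is counted among the pioneer factors, which can engage closed chromatin. MLL3 and MLL4 are histone methyltransferases that place the H3K4me1 mark at enhancers. In epidermal stem cells (EpdSCs), which do not normally use SOX9, induced SOX9 is known to redirect cells towards a hair follicle fate and later towards basal cell carcinoma.

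EpdSCs were sorted from back skin of male CD1 mice of genotype K14rtTA; TRE-myc-Sox9, in which doxycycline (DOX) given from P21 turns on MYC-tagged SOX9 in cells with an active keratin 14 promoter. The sort kept CD49f-high, Ly6A-high, CD34-negative cells that lacked CD31, CD45, CD117 and CD140a. SOX9 CNR covered D0 (P21, before DOX), W1 (P28), W2 (P35), W6 (P63) and W12, the last labelled as grafted, while MLL3/4 CNR covered D0, W1 and W2. The paper states that W12 skin came from newborn pups and was grafted onto immunocompromised female Nude mice. There DOX began after the grafts had healed, not at P21. Weeks of DOX, age and, at W12, grafting with its host cannot be told apart. In culture, keratinocytes from CD1 mice with K14rtTA carried WT-SOX9, SOX9 without its transactivation domain (ΔTA-SOX9, in the labels Sox9noTA) or SOX9 without its DNA-binding domain (ΔHMG-SOX9, in the labels Sox9noHMG). MYC-tag CNR, which reads the introduced SOX9, and MLL3/4 CNR came from uninduced WT-SOX9 cells and from all 3 lines with DOX at 1 µg per ml. Each group had 2 samples pooled by the authors into 1 peak list, which leaves no spread between replicates and no test between groups. The 2 MLL3/4 samples of WT-SOX9 cells with DOX are numbered 1 and 2 in their titles. Both are described elsewhere in the labels as replicate 2, so the libraries behind that list are not certain. Below, shares of regions carry 95% Wilson confidence intervals (CI), differences between sets Newcombe intervals, and changes at the same regions normal intervals. All of them cover counting error over regions only, and neighbouring regions are not independent.

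Stretches of 50 bp on either flank of the W2 SOX9 maximum are shown for 8 of the strongest sites, because they differ in which motif stands under the peak (mm10, plus strand, 5′ to 3′, from the RefSeq GRCm38.p6 genome). Capitals mark SOX words (CCATTGT and the variants CCTTTGT or GCATTGT as well as GCTTTGT on either strand) and the AP1 word (TGACTCA on either strand). The site near *Zfp365* held 2 SOX words facing each other, the sites near *Clec2d* and *Myc* held neither word, and the site near *Adgrl2* held an AP1 word.
*Tle1*, chr4:72233755-72233855: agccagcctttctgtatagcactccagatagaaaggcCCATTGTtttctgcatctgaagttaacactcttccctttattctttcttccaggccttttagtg
*Adgrl2*, chr3:148429099-148429199: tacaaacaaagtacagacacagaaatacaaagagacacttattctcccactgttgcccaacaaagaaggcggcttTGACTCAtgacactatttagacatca
*Clec2d*, chr6:129163892-129163992: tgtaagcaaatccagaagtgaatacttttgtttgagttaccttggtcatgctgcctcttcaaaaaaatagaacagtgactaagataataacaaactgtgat
*Myc*, chr15:61536395-61536495: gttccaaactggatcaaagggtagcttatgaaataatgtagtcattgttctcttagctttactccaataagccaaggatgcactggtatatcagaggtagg
*Nhsl1*, chr10:18506461-18506561: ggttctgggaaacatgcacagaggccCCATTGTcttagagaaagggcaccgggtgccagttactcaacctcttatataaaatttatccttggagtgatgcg
*Zfp365*, chr10:67846177-67846277: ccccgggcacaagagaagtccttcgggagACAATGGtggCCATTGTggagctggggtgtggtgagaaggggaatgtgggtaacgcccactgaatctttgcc
*Ifngr1*, chr10:19498447-19498547: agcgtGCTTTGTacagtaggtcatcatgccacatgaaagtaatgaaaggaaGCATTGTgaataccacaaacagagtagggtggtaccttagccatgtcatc
*Slc4a3*, chr1:76025227-76025327: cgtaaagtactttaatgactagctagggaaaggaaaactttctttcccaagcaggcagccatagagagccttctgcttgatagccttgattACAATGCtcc

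The gene names are those of the nearest protein-coding transcription start, which says nothing about which gene a site acts on. The *Tle1* site was intergenic and 32886 bp from the start of *Tle1*, which encodes a Groucho co-repressor. Its SOX9 maximum was 13196 RPKM (W1), 18641 RPKM (W2), 15070 RPKM (W6) and 10295 RPKM (W12), and its unscaled MLL3/4 maximum was 43 at W1 and 33 at W2. Its total signal ranked 6 among 18657 SOX9 peaks at W2 and 6 among 20579 at W6. In culture it carried a WT-SOX9 peak and an MLL3/4 peak with WT-SOX9, and none in the other 6 pooled lists. A smaller member lay just beside it, with SOX9 maxima between 3514 and 4408 RPKM at W1 to W6 and no W12 peak.

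The *Adgrl2* site, intergenic and 393830 bp from that gene, had SOX9 maxima of 13542, 16349, 11586 and 8732 RPKM at W1, W2, W6 and W12 and MLL3/4 maxima of 21 and 22. Like the *Tle1* site it was seen in culture only in the 2 lists of WT-SOX9 cells with DOX, of 8 pooled lists. The *Clec2d* site was broad, with 1958 bp in all, and much lower at its maximum, with 4207, 6417, 4576 and 3952 RPKM. The *Nhsl1* site lay in an intron of that gene and had maxima of 14809, 15738, 14860 and 7307 RPKM, yet none of the 8 pooled lists of cultured cells held it. The *Myc* site, 448946 bp from the gene and on an exon of a transcript that does not code for protein, was absent from these 8 lists as well, with maxima of 8528, 11154, 8689 and 4780 RPKM. The *Zfp365* site with the facing SOX words reached 12504, 17495, 12593 and 8870 RPKM, and it carried an MLL3/4 peak in culture before DOX, with WT-SOX9 and with ΔHMG-SOX9. All of the 10 highest-ranked sites had a W12 peak (64.4% of all members), and 6 had a WT-SOX9 peak in culture (33.0% of all members). Their rank used the SOX9 signal at W1, W2 and W6, and the W12 share rose with the W6 level (below).

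Over the 2489 members, MLL3/4 peaks were present at both W1 and W2 in 1840 (73.9%, 95% CI 72.2 to 75.6), at W1 alone in 357 (14.3%) and at W2 alone in 292 (11.7%). The D0 MLL3/4 list was the longest of the 3, with 37072 peaks against 31539 at W1 and 29281 at W2, so the D0 list was not the shortest. The MLL3/4 maxima are whole numbers and were read as not scaled to depth, which is unknown for these lists. A site under the D0 threshold is not a site without MLL3/4. Members reached a median unscaled MLL3/4 maximum of 8 at both W1 and W2, and sites with prior MLL3/4 a median of 10. The members' MLL3/4 peaks stood at a median percentile of 67.0 by total signal within the W1 list and 63.3 within the W2 list. The MLL3/4 maximum sat close to the SOX9 maximum, at a median of 48 bp at W1 and 52 bp at W2, and within 100 bp in 74.8% and 72.5% of members with a peak at that week. Prior sites had medians of 47 and 59 bp and 72.9% and 67.5% within 100 bp. The rule required members to overlap an MLL3/4 peak, which limits this distance, so the closeness is a description.

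By overlap, members lay clear of the edge of the rule. The smallest overlap between a member and its MLL3/4 peak was 52 bp (near *Slc25a33*), then 56 bp (near *Tprg*), and the median was 471 bp. Just outside, the de novo sites nearest to an MLL3/4 peak without overlapping it lay 13 bp (near *Slc6a14*) and 16 bp (near *Kcnrg*) from one. A D0 MLL3/4 peak lay within 1000 bp of 244 members (9.80%) and within 200 bp of 25. By SOX9, the lowest members stood at the authors' limit of 1800 RPKM. Their maxima of 1844 RPKM (W1), 1834 RPKM (W2) and 1805 RPKM (W6) came from 32, 24 and 43 fragments. By MLL3/4 many members were near the floor: the lowest maximum in the D0, W1 and W2 lists was 5, and the members' lower quartile was 6 at both W1 and W2.

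The SOX9 maxima of members were broad in range. The median member had 3630 RPKM in the W1 list, 4278 RPKM in the W2 list and 4072 RPKM in the W6 list, and the highest reached 28038 RPKM in the W2 list. De novo sites without MLL3/4 had medians of 2766, 3438 and 3904 RPKM, and sites with prior MLL3/4 had 2881, 3743 and 3064. Thus the members' median lay above both other sets at W1, W2 and W6, by little over sites without MLL3/4 at W6. From W2 to W6 the maximum was higher in 41.6% of members, in 61.4% of de novo sites without MLL3/4 and in 26.5% of sites with prior MLL3/4. Because these lists took part in the selection, the differences are given without a test.

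**Figure D1:**
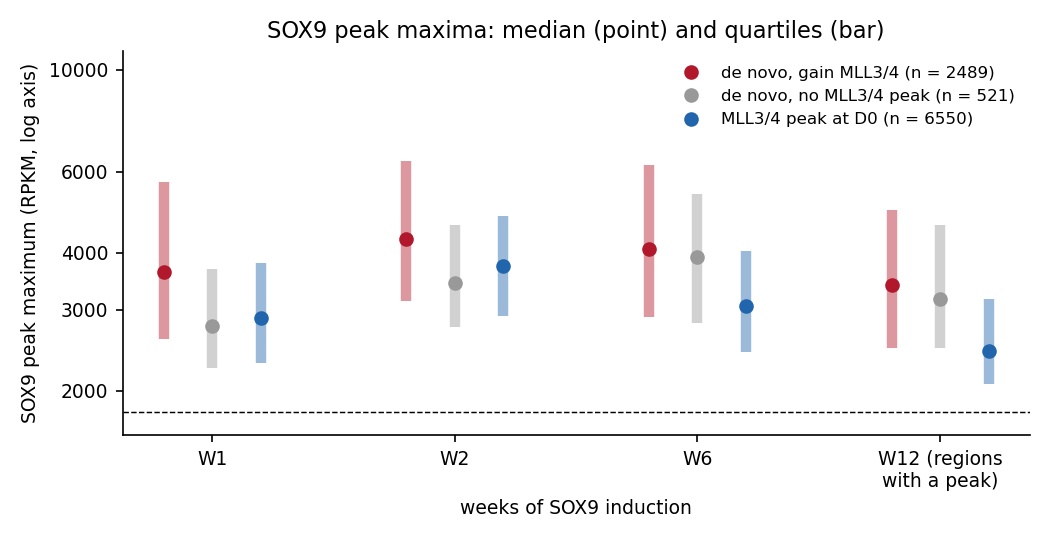
SOX9 peak maximum in RPKM on a log axis at W1, W2, W6 and W12, for members (red), de novo sites without an MLL3/4 peak (grey) and sites with an MLL3/4 peak at D0 (blue). Points are medians, bars run from the lower to the upper quartile over regions, the dashed line is the authors' limit of 1800 RPKM, and W12 holds only regions with a W12 peak, so the W12 medians (3401, 3171 and 2436 RPKM) are not over the same regions as the others.

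The W12 list took no part in the selection beyond the bounds of the regions. At W12, 1603 of 2489 members still carried a SOX9 peak (64.4%, 95% CI 62.5 to 66.3), against 2.37% for the same regions moved 10 kb and 49.9% of all regions with SOX9 at W1, W2 and W6. Of the sites with prior MLL3/4, 39.8% (95% CI 38.6 to 41) had a W12 peak, and members exceeded them by 24.6 points (95% CI 22.4 to 26.8). Of the de novo sites without MLL3/4, 61.6% (95% CI 57.4 to 65.7) had one, and the difference of 2.79 points had an interval that included 0 (95% CI -1.71 to 7.43). This depended on the setting: the difference was 7.03 points (95% CI 3.93 to 10.1) with the 50% of each MLL3/4 list of highest total signal, 6.07 points (95% CI 1.41 to 10.9) with 1 region per run under 50 kb, and 5.07 points (95% CI 0.447 to 9.82) with MLL3/4 at both W1 and W2. Within the members, a W12 peak was found at 66.7% (95% CI 64.5 to 68.8) of sites with MLL3/4 at W1 and W2, at 60.2% (95% CI 55.1 to 65.2) with W1 alone and at 55.1% (95% CI 49.4 to 60.7) with W2 alone.

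The W12 share moved with the SOX9 level at W6. When the members were cut at the quartiles of their W6 maximum, a W12 peak was found at 21% (95% CI 17.9 to 24.4) of the lowest bin, 50.9% of the second, 84.9% of the third and 98.9% (95% CI 97.7 to 99.5) of the highest. In the same bins, de novo sites without MLL3/4 gave 22.4%, 54.3%, 84.0% and 96.9%, each with an interval that held the members' value. Sites with prior MLL3/4 gave 13.4%, 41.8% and 79.0% in the lower 3 bins and 99.2% in the highest. The W6 list took part in the selection and both lists share the limit of 1800 RPKM, so these values are a description. The bins were chosen after the data were seen.

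**Figure D2:**
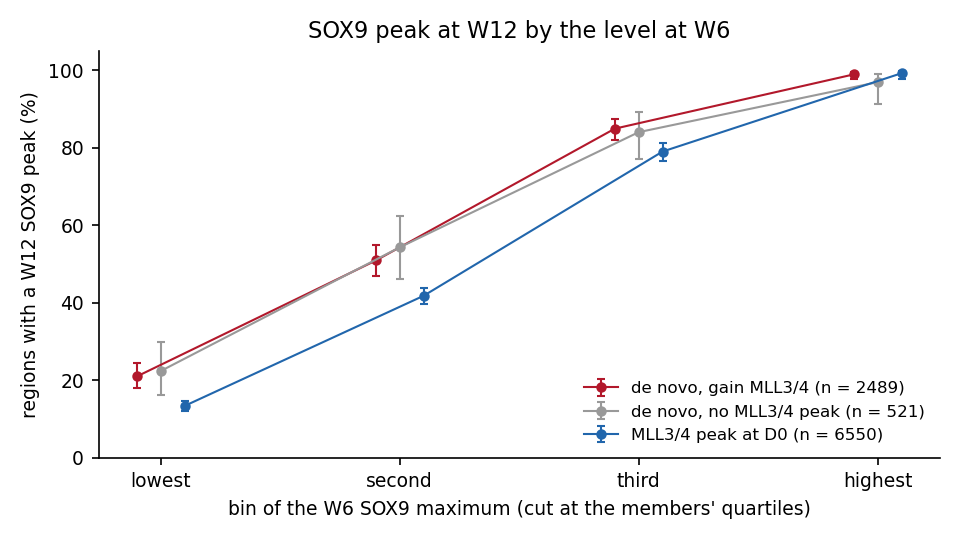
Share of regions with a W12 SOX9 peak, in percent, within 4 bins of the W6 SOX9 maximum cut at the members' quartiles, for the same 3 sets, with 95% Wilson intervals over regions. The members' share goes from 21% in the lowest bin to 98.9% in the highest, and sites with prior MLL3/4 lie below members in the lower 3 bins.

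To ask whether introduced SOX9 reached the same sites outside the skin, members were set against MYC-tag CNR of cultured keratinocytes. Without DOX, 33 members (1.33%, 95% CI 0.946 to 1.86) were overlapped, and with WT-SOX9, 822 were (33.0%, 95% CI 31.2 to 34.9), a change of 31.7 points (95% CI 29.8 to 33.6) at the same regions. Under the alternative settings this change lay between 26.8 and 52.7 points. The same regions moved 10 kb gave 0.201% and 0.904%. With ΔHMG-SOX9, 34 members (1.37%) were overlapped, a change of 0.0402 points from no DOX (95% CI -0.488 to 0.569). With ΔTA-SOX9 it was 398 members (16%, 95% CI 14.6 to 17.5), from a list of 11341 peaks that was longer than the 6671 of WT-SOX9. Of all regions with SOX9 at W1, W2 and W6, the 4 lists overlapped 7.83% (no DOX), 20.3% (WT-SOX9), 24.2% (ΔTA-SOX9) and 9.55% (ΔHMG-SOX9). Members were thus above that level for WT-SOX9 and below it for the other 3.

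Against sites with prior MLL3/4, the members' share was 19.2 points higher with WT-SOX9 (95% CI 17.2 to 21.3) and differed by -8.94 points with ΔTA-SOX9 (95% CI -10.7 to -7.13). Against de novo sites without MLL3/4, the WT-SOX9 share differed by 0.396 points (95% CI -4.13 to 4.71). For ΔTA-SOX9 it was 7.93 points higher in members (95% CI 4.93 to 10.5). Members that WT-SOX9 reached in culture also had a W12 peak in the grafted skin more often, at 88.4% (95% CI 86.1 to 90.5) against 52.5% (95% CI 50.1 to 54.9) of those it did not reach. The other sets showed the same order, with 88.2% against 48.7% at de novo sites without MLL3/4 and 69.6% against 35% at prior sites.

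**Figure D3:**
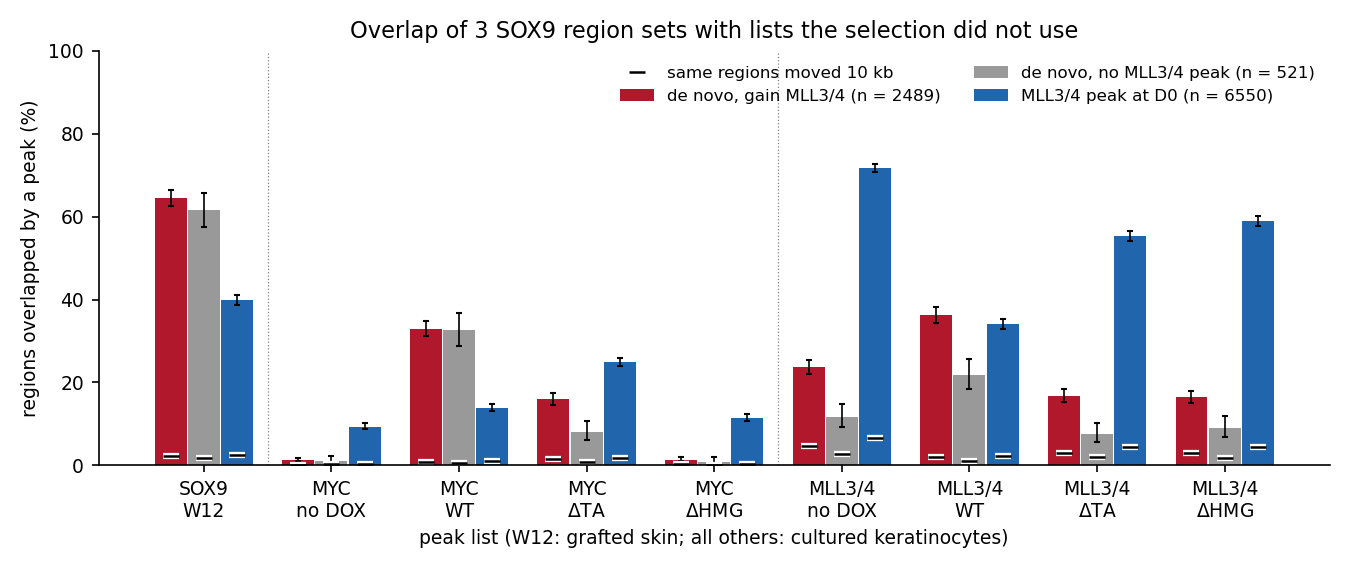
Share of regions overlapped by a peak, in percent, for members (red), de novo sites without an MLL3/4 peak (grey) and sites with an MLL3/4 peak at D0 (blue), against the W12 SOX9 list and the 8 pooled lists of cultured cells. Error bars are 95% Wilson intervals over regions and short dashes the share of the same regions moved 10 kb; of the 4 cultured MLL3/4 lists, WT-SOX9 with DOX gives members their highest share (36.3%) and no DOX gives prior sites theirs (71.8%).

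MLL3/4 in culture was also most frequent at members with WT-SOX9, but the other 3 lists stood in another order than for the MYC tag. Without DOX, 590 members carried an MLL3/4 peak (23.7%, 95% CI 22.1 to 25.4), so these sites were not all without an MLL3/4 peak in culture before induction. With WT-SOX9 it was 903 (36.3%, 95% CI 34.4 to 38.2), a change of 12.6 points (95% CI 10.3 to 14.8). This change lay between 3.58 and 28.1 points under the alternative settings. The share was 16.8% with ΔTA-SOX9 and 16.4% with ΔHMG-SOX9, changes of -6.95 points (95% CI -8.28 to -5.62) and -7.27 points (95% CI -8.56 to -5.98) from no DOX. The same regions moved 10 kb gave between 2.01% and 4.58%. Over all regions with SOX9 at W1, W2 and W6 the shares were 58.3% without DOX, 35.4% with WT-SOX9, 45.5% with ΔTA-SOX9 and 47.8% with ΔHMG-SOX9.

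The higher share with WT-SOX9 was found although its list was the shortest, with 10543 peaks against 33975 without DOX. When all 4 lists were shortened to 10543 peaks by total signal, 8.36% of members were overlapped without DOX, 36.3% with WT-SOX9, 7.75% with ΔTA-SOX9 and 7.91% with ΔHMG-SOX9. Sites with prior MLL3/4 went the other way in the full lists, from 71.8% without DOX to 34.0% with WT-SOX9, a change of -37.7 points (95% CI -39.0 to -36.4). With lists of equal length these sites had 41.2% and 34.0%. De novo sites without MLL3/4 in vivo went from 11.7% to 21.9% in culture. Members lay above those sites by 14.4 points with WT-SOX9 (95% CI 10.2 to 18.2), and already by 12 points without DOX (95% CI 8.54 to 15.0). The difference with WT-SOX9 lay between 14.1 and 22.0 points under the alternative settings.

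Where WT-SOX9 sat in culture, MLL3/4 was usually found with it. Among members without an MLL3/4 peak before DOX, 612 had a WT-SOX9 peak, and 433 of these had an MLL3/4 peak with WT-SOX9 (70.8%, 95% CI 67.0 to 74.2). Of the other 1287, 149 had one (11.6%, 95% CI 9.94 to 13.4), 59.2 points fewer (95% CI 55.0 to 63). The same split stood at both other sets, with 71.6% (of 141) against 5.38% at prior sites and 52.0% (of 152) against 3.57% at de novo sites without MLL3/4. At the same 612 members, MLL3/4 peaks numbered 28 with ΔTA-SOX9 (4.58%) and 31 with ΔHMG-SOX9 (5.07%). Those 2 lines are separate cultures whose own MYC-tag peaks were few at these members, 63 of the 612 for ΔTA-SOX9. At the 99 members without MLL3/4 before DOX that did carry a ΔTA-SOX9 peak, 26 had MLL3/4 with ΔTA-SOX9 (26.3%, 95% CI 18.6 to 35.7), 18 with ΔHMG-SOX9 (18.2%, 95% CI 11.8 to 26.9) and 60 with WT-SOX9 (60.6%, 95% CI 50.8 to 69.7).

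**Figure D4:**
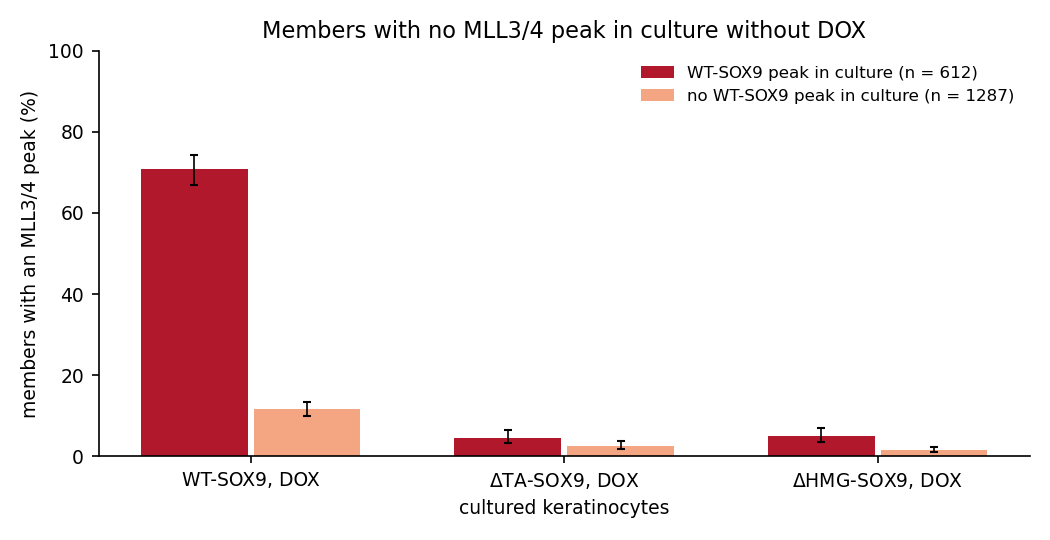
Members without an MLL3/4 peak in culture before DOX, split by whether WT-SOX9 had a MYC-tag peak there (612 regions, dark) or not (1287 regions, light), with the share that had an MLL3/4 peak in each line with DOX, in percent. Error bars are 95% Wilson intervals over regions; the share is 70.8% for WT-SOX9 where it had a peak and below 12% in the other 5 bars.

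The ΔTA-SOX9 peaks lay mostly on the members that held MLL3/4 in culture already. Of the 398 members with a ΔTA-SOX9 peak, 299 had an MLL3/4 peak without DOX (75.1%, 95% CI 70.7 to 79.1), 61.2 points more than members without a ΔTA-SOX9 peak (95% CI 56.5 to 65.4). At prior sites it was 1556 of 1633 (95.3%) and at de novo sites without MLL3/4 22 of 42 (52.4%). For WT-SOX9 the share was 25.5% (95% CI 22.7 to 28.6) of its 822 members and 22.8% (95% CI 20.8 to 24.9) of the rest. Of the 398, 204 were also overlapped by WT-SOX9.

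Most members were distal. By the W2 maximum, 48.5% lay in introns, 39.1% between genes, 3.09% in exons and 9.32% (95% CI 8.24 to 10.5) within 1 kb of an annotated transcription start. The promoter share was 30.7% (95% CI 29.6 to 31.8) at sites with prior MLL3/4, so that members differed from them by -21.4 points (95% CI -22.9 to -19.7), and 13.8% (95% CI 11.1 to 17) at de novo sites without MLL3/4. The median distance to the nearest protein-coding start was 25543 bp for members, 17663 bp for de novo sites without MLL3/4 and 9970 bp for prior sites. The 232 promoter members differed from the 972 intergenic ones, with a W12 peak at 53.4% (95% CI 47 to 59.8) against 66.0% (95% CI 63 to 69.0) and cultured MLL3/4 with WT-SOX9 at 26.3% (95% CI 21 to 32.3) against 36.5% (95% CI 33.6 to 39.6). Cultured MLL3/4 before DOX ran the other way, at 31.9% (95% CI 26.2 to 38.1) against 23.9% (95% CI 21.3 to 26.6). Members were 810 bp wide at the median, de novo sites without MLL3/4 593 bp and prior sites 849 bp.

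The sequence under the SOX9 maximum set members apart from both other sets. A SOX word stood within 50 bp of the W2 maximum in 835 members (33.5%, 95% CI 31.7 to 35.4), 4.79 times the 7.01% of windows 1 kb away, and in 15.6% of all regions with a W2 peak. The share was 12.2% (95% CI 11.4 to 13.0) at prior sites, 21.3 points lower (95% CI 19.3 to 23.4), and 43.6% (95% CI 39.4 to 47.9) at de novo sites without MLL3/4, from which members differed by -10 points (95% CI -14.7 to -5.43). Under the alternative settings the members' share lay between 11.9% (longer SOX words) and 45.4% (windows of 100 bp to each side). Facing pairs of SOX cores separated by 3 to 5 bases, the arrangement printed for the *Zfp365* site, were found in 112 members (4.5%), in 13.8% of de novo sites without MLL3/4, in 0.504% of prior sites and in 1.47% of all regions with a W2 peak. A pair also holds the cores that the SOX words share, so both counts overlap.

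AP1 words, which FOS and JUN proteins bind, ran in the opposite order among the 3 sets. They stood in 14.6% (95% CI 13.3 to 16.1) of member windows, 7.0 times the 2.09% of windows 1 kb away. Prior sites had 18% (95% CI 17.1 to 19), a difference of -3.39 points for members (95% CI -5.03 to -1.68), and de novo sites without MLL3/4 8.45% (95% CI 6.35 to 11.1), 6.18 points fewer than members (95% CI 3.17 to 8.72). All regions with a W2 peak had 15.7%. KLF/SP words (GGGCGTG and the variant GGGCGGG) stood in 2.45% of members and 10% of prior sites, and the TEAD word (ACATTCC) in 2.25% of members, 1.10% of control windows and 2.17% of all regions with a W2 peak. The GATA words (AGATAAG and the variant AGATAAC) were at 2.45% in member windows and 2.45% in control windows, and the RUNX word (AACCACA) at 2.69% and 2.55%. NFI and GLI words were found in 0 member windows, which says only that these letters were not there. Median GC content was 45.5% in member windows and 49.5% at prior sites.

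**Figure D5:**
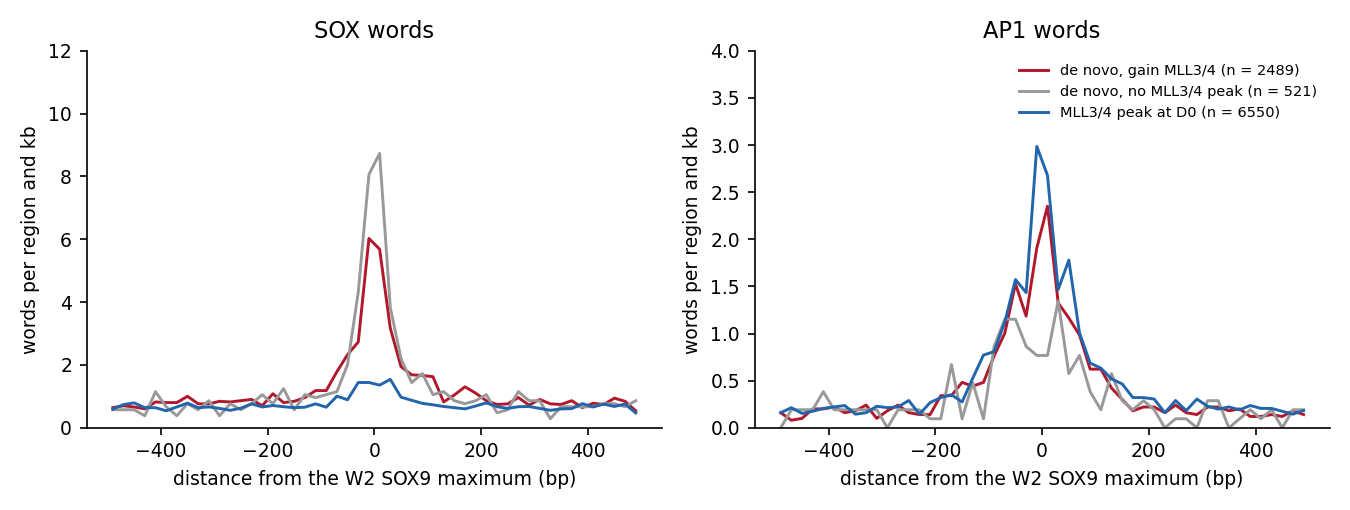
Density of SOX words (left) and AP1 words (right) in bins of 20 bp around the W2 SOX9 maximum, in words per region and kb, for the same 3 sets. SOX words are densest at the maximum of de novo sites without MLL3/4, then of members, and AP1 words at the maximum of prior sites; the y axes differ between panels.

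Both words also split the members on lists the selection did not use. Members with a SOX word had a W12 peak in 73.7% (95% CI 70.6 to 76.5) and a WT-SOX9 peak in culture in 42.0% (95% CI 38.7 to 45.4), 13.9 points (95% CI 10 to 17.7) and 13.6 points (95% CI 9.58 to 17.5) above members without one. They held MLL3/4 in culture before DOX less often, in 17.7% against 26.7%. Among the 112 members with a facing pair, 88.4% (95% CI 81.1 to 93.1) had a W12 peak, 59.8% (95% CI 50.6 to 68.4) a WT-SOX9 peak, 5.36% a ΔTA-SOX9 peak and 8.04% an MLL3/4 peak before DOX. Members with an AP1 word also had a W12 peak more often, in 77.5% (95% CI 72.9 to 81.5) against 62.2%, but differed in culture. Their share with a ΔTA-SOX9 peak was 33.5% (95% CI 28.9 to 38.5) against 13.0%, and with MLL3/4 before DOX 41.8% (95% CI 36.8 to 46.9) against 20.6%. Their WT-SOX9 share of 31.9% differed by -1.36 points (95% CI -6.36 to 3.98) from that of members without an AP1 word. A word is a description of the letters and not a bound site.

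Of 21911 protein-coding genes, 2770 (12.6%) had a member within the gene or 50 kb of it, and 172 had 3 or more. The gene with the most was *Fgfr2*, a receptor of fibroblast growth factors, with 10, but its annotated body (chr7:130162451-133123350) includes long transcript models that span neighbouring genes, so that its density was 0.327 members per 100 kb. *Ispd*, which takes part in the glycosylation of dystroglycan, had 9, of which 8 had MLL3/4 at W1 and W2 and 0 held MLL3/4 in culture before DOX. *Tmem45a*, *Runx1* and *Gm42906* had 7 each, and *Cmss1*, *2010111I01Rik*, *Maml2*, *Rad51b*, *Cdkal1*, *Rbms3* and *Gm37240* 6 each. *Tax1bp1*, *Hibadh* and *Fntb* had 5 each, and *Tax1bp1* and *Hibadh* shared theirs. They were the densest of several genes tied at 5, and 23 genes had 5 or more. Per 100 kb, *Tmem45a* led these genes with 3.87 and *Runx1* had 2.16.

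*Runx1* (chr16:92601466-92826149) encodes a transcription factor of HFSC activation, and all of its 7 members were intronic in the annotation, 1 of them in a transcript beyond the gene itself. At the 6 of them with a W12 peak, SOX9 maxima ran from 2766 to 11698 RPKM at W1. The strongest at W2, chr16:92623673-92624521, had 10199, 12147, 11922 and 5699 RPKM at W1, W2, W6 and W12 and MLL3/4 maxima of 13 and 12. The member at chr16:92738280-92739775 climbed in the lists from 2766 RPKM at W1 to 5577 at W2 and 10368 at W6, had MLL3/4 at W2 alone, and carried WT-SOX9 and MLL3/4 in culture only with DOX. Of the 7 members, 3 had a WT-SOX9 peak in culture and 3 an MLL3/4 peak in those cells, and 2 had both. Of the 3 with MLL3/4, 2 already had it before DOX. The only member without a W12 peak, chr16:92627237-92628132, had 4610, 6570 and 5457 RPKM.

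The lists of genes of hair follicle and epidermis were read against the 12.6% of all protein-coding genes, whose median locus of 117 kb was shorter than that of most lists. Of 15 HFSC transcription factor genes, 10 had a member (66.7%; median locus 167 kb), among them *Nfib* and *Vdr* with 3 each and *Tcf7l2*, *Nfatc1*, *Foxp1* and *Barx2* with 2 each. *Nfib* encodes a factor that maintains the stem cell enhancer landscape. Its member at chr4:82566643-82567525 had 2132, 4431, 5415 and 4090 RPKM from W1 to W12, MLL3/4 at W2 alone, and WT-SOX9 and MLL3/4 in culture. *Vdr*, the vitamin D receptor gene needed for hair cycling, held a member at chr15:97897284-97898191 with 9566, 14821, 14692 and 9192 RPKM, although its MLL3/4 maxima were only 7 and 5. Its other members stayed between 2183 and 2651 RPKM.

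Of 8 RUNX and TLE genes, 5 had a member (62.5%; 13 in all, 7 of them at *Runx1*). Of 18 hair follicle surface and secreted markers 7 had one (38.9%), *Krt15*, *Krt17*, *Fst*, *Tgfb2*, *Postn* and *Cd200* with 1 each and *Alcam* with 2. The members counted for *Krt15* and *Krt17* were the same 2 regions that counted for *Krt14* of the epidermal list, and none lay within 10 kb of these genes. The hedgehog pathway, which drives basal cell carcinoma, had 5 of 12 (41.7%), among them *Sufu*, which encodes an inhibitor of GLI factors, with 2. Of 31 WNT pathway genes 8 had a member (25.8%), led by the receptor gene *Ror1* with 4. One of these, chr4:100160138-100160854, had its highest SOX9 maximum at W1, with 9796 RPKM against 5424 at W2 and 2477 at W6. Among 13 SOX genes 4 had a member (30.8%; 2 within 10 kb), *Sox10* with 2, *Sox21* with 1, and *Sox5* and *Sox6*, which encode partners of SOX9 in cartilage, with 3 each. All 3 at *Sox6* carried WT-SOX9 and MLL3/4 with WT-SOX9 in culture, and 1 of them held MLL3/4 before DOX.

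The epidermal lists were mixed. Of 15 epidermal transcription factor genes 4 had a member (26.7%), whereas 12 (80.0%) had a site with prior MLL3/4, and of 11 AP1 genes 1 had a member (*Maf*) and 11 a prior site. Prior sites were also near 53.3% of the HFSC transcription factor genes and 75% of the RUNX and TLE genes, against 36.8% of all protein-coding genes. *Trp63*, the master regulator of stratified epithelia, had 3 members, the strongest upstream of the gene at chr16:25666164-25667419 with 8932, 16273, 11670 and 7215 RPKM and MLL3/4 maxima of 19 and 13. Of 23 epidermal structural genes 9 had a member (39.1%), with 3 each for *Krt5*, *Lor* and *Dsp*. Within 10 kb of the gene, *Krt5* had 2, *Lor* 0 and *Dsp* 3. *Krt5* encodes a keratin of basal cells, and all 3 of its members held MLL3/4 in culture before DOX. The remaining lists gave 5 of 22 for TGF-beta and BMP, 6 of 18 for Notch and EGFR and 7 of 19 for cytoskeleton, adhesion and EMT. Markers of other skin cells gave 2 of 12, *Pecam1* of endothelium and *Mitf* of melanocytes, with 1 member each, at 16.7% near the level of all genes. Within 10 kb of the gene, 1325 of all 21911 genes had a member. At that distance the HFSC transcription factor genes had 8 of 15, WNT 8 of 31, Notch and EGFR 6 of 18 and markers of other skin cells 2 of 12, the same as within 50 kb for the latter 3, whereas hair follicle markers went from 7 to 3, RUNX and TLE from 5 to 3, hedgehog from 5 to 2, epidermal transcription factors from 4 to 2, epidermal structural genes from 9 to 5, TGF-beta and BMP from 5 to 3, cytoskeleton, adhesion and EMT from 7 to 4, SOX genes from 4 to 2 and AP1 genes from 1 to 0.

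Members were mostly solitary. With members under 15 kb apart joined, 1892 stood alone and 597 fell into 266 runs, of which 49 held 3 or more. The longest run held 6 members over 24.5 kb of *Tmem45a* (chr16:56831064-56855525), with W2 maxima between 2674 and 4049 RPKM. Of the 6, 2 had a W12 peak and 1 a WT-SOX9 peak in culture. Runs of 5 lay nearest to *Ccn2*, between *Hibadh* and *Tax1bp1*, and within *Runx1*. *Ccn2* encodes a secreted matrix protein known as a target of YAP and TEAD. The run lay between 121221 and 148978 bp from that gene. Of its members, chr10:24445700-24446923 had the highest MLL3/4 maxima of the 4 runs, 35 at W1 and 34 at W2, and SOX9 maxima of 9220, 7945, 5247 and 2941 RPKM, and it was overlapped by all 8 pooled lists of cultured cells, those without DOX and with ΔHMG-SOX9 included.

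The run between *Hibadh* and *Tax1bp1* (chr6:52665609-52687445) held no SOX or AP1 word within 50 bp of any W2 maximum. Even so, its member at chr6:52684098-52685395 had 7261, 12147, 10788 and 10341 RPKM at W1, W2, W6 and W12, and 4 of its 5 members carried WT-SOX9 and MLL3/4 with WT-SOX9 in culture. None of the 5 had an MLL3/4 peak in culture before DOX or a ΔTA-SOX9 peak. The annotation puts all 5 members between genes, 2 of them nearer to the start of *Hibadh* and 3 to that of *Tax1bp1*.

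In all, 433 members (17.4%, 95% CI 16 to 18.9) showed in culture the pattern by which they had been chosen in vivo, with WT-SOX9 and MLL3/4 peaks with DOX and neither before it. The share was 15.2% (95% CI 12.3 to 18.5) at de novo sites without MLL3/4 in vivo, a difference of 2.23 points whose interval included 0 (95% CI -1.40 to 5.45), and 1.54% at prior sites. The strongest of them by rank were the *Tle1*, *Adgrl2* and *Clec2d* sites, the site 93452 bp from *Ifngr1* (chr10:19497967-19499098) and the site 473568 bp from *Slc4a3* (chr1:76024390-76026435). The *Ifngr1* site had 13945, 14745, 11586 and 10846 RPKM from W1 to W12 and MLL3/4 maxima of 21 and 20. The *Slc4a3* site had 7433, 11307, 9067 and 5101 RPKM and MLL3/4 maxima of 11 and 12. Of these 5 sites, 0 had a ΔTA-SOX9 or ΔHMG-SOX9 peak or an MLL3/4 peak with either.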

How the data were processed

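SOX9, MYC-tag and MLL3/4 CNR of 32 samples stood behind 18 deposited peak lists, 16 pooled and 2 of replicate 1 alone, and 9 samples were not analysed here. The authors' steps were trimming (Skewer), alignment to mm10 (Bowtie2 2.2.9), removal of duplicates (Picard), a fragment limit of 120 bp (SAMtools 1.3.1), pooling of replicates, tracks (deepTools 3.1.2) and peak calls (SEACR, stringent, 0.01). Maxima in the deposited lists of SOX9 and MYC-tag are in RPKM, and the authors kept those above 1800 in the pooled lists (the MYC-tag list of replicate 1 alone starts at 791). The 7 deposited pooled MLL3/4 lists hold whole-number maxima, which were read as unscaled signal although RPKM tracks are described for them. Levels were therefore not compared between these lists. The other deposited score, the total signal, was used for ranks within a list.

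Lists were merged and compared in Python 3.11.15 with pandas 2.3.3 and numpy 2.4.6 at an overlap of 1 bp, without the mitochondrial sequence. Sequence was read from GRCm38.p6 with pysam 0.24.0, and genes came from GENCODE vM21. The fragments behind an RPKM value follow from the step of which all maxima are whole multiples. Words were searched on both strands within 50 bp of the W2 maximum. TP63 and CTCF words stood in 1 and 3 member windows, TCF/LEF, homeobox, ETS and FOX words in 20, 67, 6 and 30.

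Named sites were the 10 members with the highest mean percentile by total signal among those with MLL3/4 at W1 and W2, and the 5 highest with WT-SOX9 and MLL3/4 in culture only with DOX. Named genes were the 15 with the most members within 50 kb (ties by members per kb) and listed genes with at least 3, other listed genes being given with their counts. Runs were the 3 longest and 1 tied. Windows shown were the first 6 sites and the first 3 of the 5 with a SOX word. The members, lists and words were chosen with earlier results of these data known. The methods were tested on simulated data.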

Additional observations from a re-analysis of the deposited data

How the results depend on the processing

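No paired analysis was possible because each group has 1 pooled list. Of 127 alternative values for the main results, 92 stayed within the interval of the main value or, for the number of members, within 1.5 times of it, 35 moved further and 0 changed sign. The W12 difference from sites without MLL3/4 ranged from 1.79 to 7.03 points, and its interval left out 0 under 3 of 10 alternatives. With the 50% of each MLL3/4 list of highest total signal, the W12 share was 59.6%, its excess over prior sites 20.1 points, the cultured SOX9 share 29.2% (change with DOX 26.8 points), the cultured MLL3/4 share 24.8% (change 3.58 points), the promoter share 12%, the SOX word share 28% and the AP1 word share 16.4%. With SOX9 maxima above 3600 RPKM, 924 members were left, the W12 share was 58.9% (W12 peaks held to the same limit) and its excess over prior sites 29.1 points, the cultured SOX9 share 54.1% (change 52.7 points), the cultured MLL3/4 share 48.2% (change 28.1 points, 22 points above sites without MLL3/4), the promoter share 6.71%, and the SOX and AP1 word shares 44.2% and 12%. In vivo MLL3/4 lists of equal length gave a cultured MLL3/4 change of 9.37 points and a promoter share of 10.6%. With 1 region per run under 50 kb, the W12 share was 68.5%, the cultured SOX9 share 36.2% (change 34.9 points) and the SOX word share 35.5%. With MLL3/4 at both W1 and W2, the W12 share was 66.7% (26.9 points above prior sites), the cultured MLL3/4 share 39.8% and the promoter share 7.66%. Cultured MLL3/4 lists of equal length gave a change of 27.9 points. A promoter of 2.5 kb gave 17.9%, windows of 100 bp to each side gave SOX and AP1 words in 45.4% and 23.3%, and longer SOX words stood in 11.9%. The causes were not tested. The no-DOX lists without replicate 2, which also have another limit (6707 MYC-tag peaks from 791 RPKM against 2242 from 1822), gave a cultured SOX9 change of 29.9 points and a cultured MLL3/4 change of 10.8 points. Other replicates could not be left out of the pooled lists. After seeing the data, regions were also cut to 250 bp to each side of the W2 maximum: the W12 share was 64.1%, the cultured SOX9 share 32.4% and the cultured MLL3/4 share 35.8%.

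The depth of the MLL3/4 lists is unknown, and a missing peak in any list is a signal under its threshold. The members' lowest SOX9 maxima at W1, W2 and W6 stood for 24 to 43 fragments at the maximum itself.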
